A study of Mus musculus with 9 samples.

Results

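The messenger RNAs of lipoprotein lipase, of the proteins that mature, hold and inhibit it, of the receptors that take up lipoproteins and fatty acids, and of the fatty acid binding proteins were followed in brown adipose tissue of obese mice given cotadutide. The set held 10 genes (Lpl, Gpihbp1, Lmf1, Angptl4, Cd36, Vldlr, Lrp1, Fabp3, Fabp4 and Fabp5), found by matching gene identifiers to symbols, of 49315 genes listed in the count tables. All 10 passed the filter on low counts, which left 14747 genes. The libraries came from male C57Bl/6J mice made obese by diet, 4 given vehicle and 5 given cotadutide, a peptide agonist of the receptors for GLP-1 and glucagon. Both groups were 14 weeks old, were acclimated for 3 weeks, were fed a diet with 60% fat to a weight of about 50 g and were housed singly, not at thermoneutrality. Each mouse was injected under the skin once a day for 28 days, and RNA was taken from 30 mg of its brown fat after the fat layer of the homogenate was removed. No lean or untreated group was analysed here, so every value is a comparison between obese mice. Each library came from 1 mouse, and the dose is not given in the labels.

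Lipoprotein lipase is secreted by adipocytes, is carried across the endothelium and splits triglyceride in circulating lipoproteins at the capillary wall. The fatty acids that it frees enter the cell, where small fatty acid binding proteins carry them to storage or oxidation. Brown fat is known as a tissue that clears triglyceride from blood and burns the fatty acids for heat.

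Library totals ranged from 10.8 to 25.1 M counts (M, mega). Levels are given as CPM, a gene's counts per M counts of its library, after scaling by the trimmed mean of M values (TMM), and differences are cotadutide minus vehicle on the log2 scale, with a standard error (SE), from edgeR's quasi-likelihood test. A gene was said to rise or fall where its p, adjusted by Benjamini and Hochberg over all 14747 genes, was under 0.05. Over all genes 1373 rose and 1378 fell, and with library totals alone, without TMM factors, the split was 1046 and 1658. All 9 brown adipocyte markers had counts, led by Ucp1 at 4781 ± 961 CPM (SD, n = 4) in vehicle and 5886 ± 759 CPM (SD, n = 5) under cotadutide. The tissue also held muscle RNA, since 12 skeletal muscle markers led by Myh4 and Acta1 summed to between 21120 and 44398 CPM in vehicle mice and between 4798 and 18098 CPM in cotadutide mice, without overlap. Vehicle mouse 4 stood apart, with the highest muscle sum and with 50.3 CPM of Lep, the leptin gene, where vehicle mice 1 to 3 held 271.1 to 319.9 CPM and cotadutide mice 14.2 to 44.3 CPM. Differences of the 10 genes are therefore also given without it. In bulk tissue, fewer cells of a type and less RNA per cell cannot be told apart.

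Of the 10 genes, 3 rose under cotadutide (Lpl, Lmf1 and Fabp4) and 0 fell. At an unadjusted p under 0.05 there were 4 higher and 1 lower, where 5267 of all 14747 genes passed in either direction. DESeq2 called 4 higher and 0 lower, and limma-voom 3 higher and 0 lower. Over all genes tested, 18.7% were called by edgeR, 9.31% higher and 9.34% lower. DESeq2 called 11.4% of all genes higher and 11.6% lower, and limma-voom 10.2% and 10%. The share called higher in the set, 3 of 10, was above these shares, but it changed with single mice. In a set of 10 genes, 0 called lower cannot be told from these shares. Leaving out vehicle mouse 4 gave 4 higher and 1 lower, leaving out vehicle mouse 1 or 2 gave 0 higher, and leaving out vehicle mouse 3 gave 1. Calls over all genes moved in the same fits. Without vehicle mouse 4 there were 2116 higher and 1588 lower, and without vehicle mouse 1 there were 47 and 92. Without vehicle mouse 2 there were 42 and 105, and without vehicle mouse 3 there were 265 and 473. The median fold of the 10 genes was 1.06, against 1.00 over all genes. Levels in the 2 groups were fully separated for Lmf1 and Fabp4, 2 of the 10 genes, both upward. Of all genes tested 15.8% were so separated, 8.06% upward and 7.79% downward. The 10 genes together took 1.89 ± 0.112% of all counts in vehicle mice (SD, n = 4) and 2.34 ± 0.107% in cotadutide mice (SD, n = 5). These sums follow the 2 most abundant of the 10: Fabp4 took 1.03% in vehicle and 1.32% under cotadutide, and Lpl 0.402% and 0.554%.

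**Figure D1:**
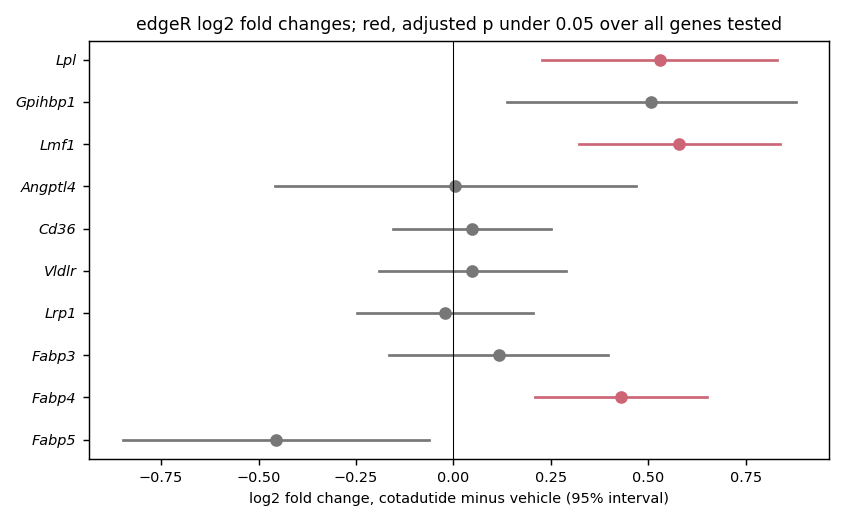
Log2 fold change of each of the 10 genes, cotadutide minus vehicle, with its 95% interval from edgeR; the vertical line is no difference and red marks an adjusted p under 0.05 over all genes tested. Lmf1, Lpl and Fabp4 are red, between 0.43 and 0.58, and the interval of Gpihbp1 lies above 0 although its adjusted p does not pass.

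Lpl encodes the lipase itself and lies on chromosome 8 from 68880491 to 68907448 (mm10, plus strand). It was the 15th most abundant of the genes tested. In vehicle mice 1 to 4 Lpl stood at 3505, 3347, 3759 and 5134 CPM, and in cotadutide mice 1 to 5 at 5871, 6602, 5441, 5537 and 4941 CPM. Of the cotadutide mice 4 lay above every vehicle mouse, and the groups met only because vehicle mouse 4 was higher than cotadutide mouse 5. Lpl rose 1.44-fold (95% interval 1.17 to 1.78, log2 difference 0.53, SE 0.14, adjusted p = 0.0269 by edgeR), from a mean of 3937 ± 816 CPM (SD, n = 4) to 5678 ± 614 CPM (SD, n = 5). Without vehicle mouse 4 the log2 difference was 0.68 (adjusted p = 0.0023). The call was lost without vehicle mouse 1, 2 or 3 (adjusted p = 0.0877, 0.0881 and 0.0772) and likewise without cotadutide mouse 2 or 3 (adjusted p = 0.0577 and 0.0539), with log2 differences of 0.45 to 0.52.

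Lmf1 encodes lipase maturation factor 1, a membrane protein of the endoplasmic reticulum needed for the lipase to fold. The gene lies on chromosome 17 from 25579174 to 25662826 (mm10, plus strand). Vehicle mice held 39.8, 38.1, 34.6 and 48.9 CPM of Lmf1 and cotadutide mice 54.0, 74.0, 60.5, 56.2 and 56.9 CPM. Every cotadutide mouse was above every vehicle mouse. Lmf1 rose 1.49-fold (log2 difference 0.58, SE 0.12, 95% interval 0.32 to 0.84, adjusted p = 0.0163 by edgeR), from 40.4 ± 6.10 CPM (SD, n = 4) to 60.3 ± 7.99 CPM (SD, n = 5). It was 0.68 without vehicle mouse 4, and the call was lost without vehicle mouse 1 (0.57, adjusted p = 0.0556) or 2 (0.55, adjusted p = 0.0547). Lmf1 kept nearly the same ratio to the lipase message, with 1.04 ± 0.116 Lmf1 counts per 100 Lpl counts in vehicle and 1.06 ± 0.0954 under cotadutide.

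Gpihbp1 encodes the endothelial protein that binds the lipase and holds it at the capillary wall, and lies on chromosome 15 from 75596628 to 75599481 (mm10, plus strand). Its levels were 96.9, 120.2, 108.0 and 154.5 CPM in vehicle mice and 157.1, 200.4, 209.7, 158.6 and 126.4 CPM in cotadutide mice. The same pair that overlapped for Lpl overlapped here, vehicle mouse 4 and cotadutide mouse 5. The log2 difference of Gpihbp1 was 0.51 (SE 0.17, 95% interval 0.14 to 0.88, adjusted p = 0.0565 by edgeR), which misses the threshold, and DESeq2 gave an adjusted p of 0.0274 and limma-voom 0.0553. Without vehicle mouse 4 it was 0.65 (adjusted p = 0.0137), and without cotadutide mouse 5 it was 0.57 (adjusted p = 0.0329). Of the 9 fits with 1 library left out, only these 2 passed. The lowest log2 difference was 0.40, without cotadutide mouse 3 (adjusted p = 0.123), and the highest adjusted p was 0.156, without vehicle mouse 1 (0.42). Per 100 counts of 12 endothelial markers, vehicle mice held 12.16, 12.02, 12.96 and 19.43 Gpihbp1 counts and cotadutide mice 17.85, 23.02, 18.88, 17.84 and 14.50. The endothelial sum itself, led by Pecam1 and Cdh5, was 856 ± 97.3 CPM in vehicle (SD, n = 4) and 924 ± 104 CPM under cotadutide (SD, n = 5), and 1 of its 12 markers, Emcn, rose.

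Angptl4 encodes a secreted inhibitor that inactivates the lipase, and lies on chromosome 17 from 33773750 to 33781575 (mm10, minus strand). It stood at 473.0, 417.4, 507.4 and 239.8 CPM in vehicle mice and at 413.2, 451.6, 425.2, 286.7 and 477.7 CPM in cotadutide mice. Vehicle mouse 4 and cotadutide mouse 4 were the low ones, and the groups overlapped throughout. The fold of Angptl4 was 1.00 with a 95% interval of 0.727 to 1.38 (log2 difference 0.0049, SE 0.21, adjusted p = 0.989 by edgeR). Its sign turned with the scaling (−0.08 with library totals alone) and without vehicle mouse 4 (−0.18, adjusted p = 0.384).

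The inhibitor message was also set against the lipase message within each library. Vehicle mice 1 to 3 held 13.5, 12.5 and 13.5 Angptl4 counts per 100 Lpl counts, and vehicle mouse 4 held 4.67. Cotadutide mice held 7.04, 6.84, 7.82, 5.18 and 9.67. All 5 cotadutide mice were below vehicle mice 1 to 3, and vehicle mouse 4 was below all 5. This ratio was not tested.

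**Figure D2:**
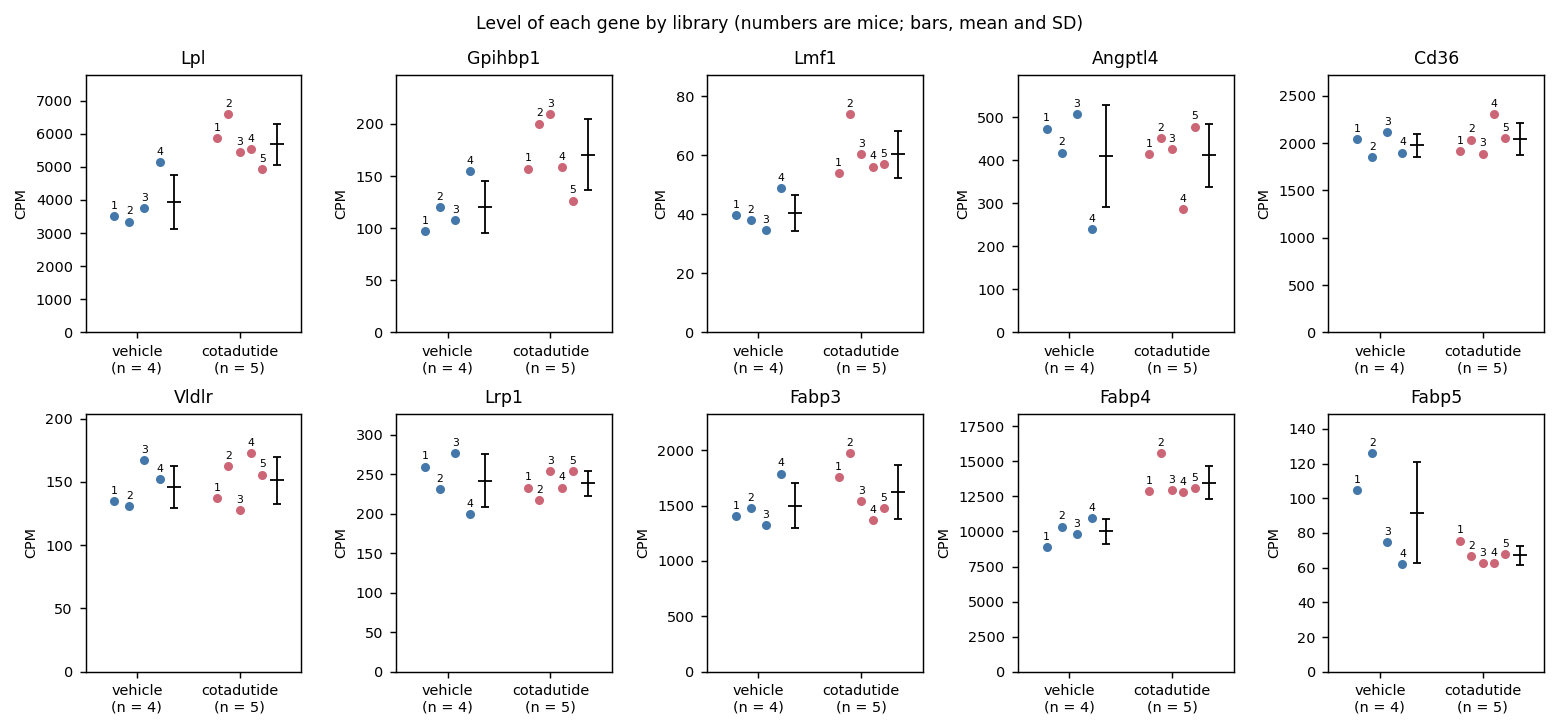
TMM-scaled CPM of each of the 10 genes by library, with 1 point per mouse, the mouse number beside it, and the mean and SD of each group as a bar; each vertical axis starts at 0. The groups do not overlap for Lmf1 and Fabp4, and vehicle mouse 4 is the highest vehicle mouse for Lpl, Gpihbp1, Lmf1, Fabp3 and Fabp4.

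Proximal sequence was at hand in RefSeq (GRCm38.p6, 250 bases before the start) for 5 of the 10 genes (Lmf1, Cd36, Vldlr, Lrp1 and Fabp3). The stretches of Lmf1, which rose, and of Cd36, which was not called, are shown to set the start region of a called gene beside that of an uncalled one. Both are written 5′ to 3′ on the strand that RefSeq gives, which was checked against annotated transcripts for Lmf1 and could not be for Cd36, with capitals for the motifs found on either strand. Lmf1 is at chr17:25578924-25579084 (plus strand, up to the first base annotated as exon of any gene). The last 89 of its 250 bases are thus not printed. Cd36 is at chr5:17835897-17836146 (minus strand, before one of several starts and inside the span of the gene).
Lmf1: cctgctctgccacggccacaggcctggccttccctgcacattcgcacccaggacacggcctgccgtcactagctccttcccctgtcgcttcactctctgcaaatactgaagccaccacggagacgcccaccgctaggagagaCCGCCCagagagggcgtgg
Cd36: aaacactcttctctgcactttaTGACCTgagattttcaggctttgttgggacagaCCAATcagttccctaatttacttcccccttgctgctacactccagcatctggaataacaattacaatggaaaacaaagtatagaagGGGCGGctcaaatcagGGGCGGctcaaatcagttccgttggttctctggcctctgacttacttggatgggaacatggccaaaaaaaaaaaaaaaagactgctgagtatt
Both strands of the 250 bases were searched for the hexamer AGGTCA that nuclear receptors such as the PPARs read, for the DR1 element made of a pair of them with 1 base between, for the GC box GGGCGG, for the CCAAT box, for the E-box CACGTG and for the TATA box TATAAA. A DR1 element contains the hexamer. Lmf1 held 1 GC box, and Cd36 held 2 GC boxes, 1 CCAAT box and 1 hexamer. Among 32851 promoter windows of this length, 32.7% held a GC box, 33.8% a CCAAT box and 14.0% the hexamer. The E-box was in 6.02%, the TATA box in 12.4% and DR1 in 0.0335%, and these letters were in neither window.

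Cd36 encodes the main fatty acid translocase of adipocytes and capillary endothelium, and lies on chromosome 5 from 17781690 to 17888801 (mm10, minus strand). It stood at 2040.1, 1849, 2115 and 1899 CPM in vehicle mice and at 1915, 2038, 1888, 2309 and 2056 CPM in cotadutide mice. The groups overlapped, with cotadutide mouse 4 above all others. The log2 difference of Cd36 was 0.05 (SE 0.09, adjusted p = 0.751 by edgeR), and its 95% interval, 0.898-fold to 1.19-fold, was the narrowest of the 10 genes. The sign turned with library totals alone (−0.02), and without vehicle mouse 4 the difference was 0.03 (adjusted p = 0.853).

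Vldlr and Lrp1 encode cell surface receptors that take up whole or remnant lipoprotein particles. Vldlr (chromosome 19 from 27216484 to 27254231, plus strand) stood at 134.7, 131.0, 167.1 and 151.9 CPM in vehicle mice and at 137.2, 162.7, 127.6, 172.6 and 155.6 CPM under cotadutide. Lrp1 (chromosome 10 from 127538161 to 127621148, minus strand) stood at 259.7, 231.3, 276.6 and 199.5 CPM in vehicle mice and at 233.1, 217.1, 253.9, 232.9 and 254.1 CPM under cotadutide. Both genes overlapped fully between the groups. The log2 difference was 0.05 for Vldlr (SE 0.11, 95% interval −0.19 to 0.29, adjusted p = 0.785 by edgeR), with its sign turned to −0.02 by library totals alone. It was −0.02 for Lrp1 (SE 0.10, 95% interval −0.25 to 0.21, adjusted p = 0.903 by edgeR). Without vehicle mouse 4 the values were 0.07 for Vldlr (adjusted p = 0.701) and −0.10 for Lrp1 (adjusted p = 0.43).

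Fabp4 encodes the fatty acid binding protein of adipocytes, aP2, a textbook target of PPAR gamma, and lies on chromosome 3 from 10204088 to 10208576 (mm10, minus strand). It was the 6th most abundant of all genes tested. Vehicle mice held 8889.9, 10351, 9817 and 10967 CPM of Fabp4 and cotadutide mice 12893, 15587, 12971, 12836 and 13089.9 CPM. The groups did not overlap, and cotadutide mouse 2 lay above the other treated mice. Fabp4 rose 1.35-fold (log2 difference 0.43, SE 0.10, 95% interval 0.21 to 0.65, adjusted p = 0.0212 by edgeR), from 10006 ± 880 CPM (SD, n = 4) to 13476 ± 1184 CPM (SD, n = 5). It took 1.03 ± 0.0794% of all counts in vehicle and 1.32 ± 0.0641% under cotadutide. Leaving out vehicle mouse 4 gave a log2 difference of 0.48, leaving out cotadutide mouse 2 gave 0.37, and the call was lost without vehicle mouse 1 (0.38, adjusted p = 0.0744), 2 (0.44, adjusted p = 0.0646) or 3 (adjusted p = 0.0676).

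Fabp4 and Lpl were also set against adipocyte messages. Against the 9 adipocyte markers together there were 139.3 ± 16.2 Fabp4 counts per 100 marker counts in vehicle (SD, n = 4) and 144.8 ± 7.44 under cotadutide (SD, n = 5), and 54.5 ± 10.00 and 61.1 ± 5.72 Lpl counts. Both ratios overlapped between the groups. Adipoq, the adiponectin gene, had the largest fold of the 9 markers, 1.56. There were 13.1 ± 2.38 Fabp4 counts per Adipoq count in vehicle (SD, n = 4) and 11.2 ± 0.749 under cotadutide (SD, n = 5), and 5.08 ± 0.627 and 4.72 ± 0.532 Lpl counts. The means of both genes were thus higher under cotadutide against the 9 markers and lower against Adipoq alone, and neither ratio was tested. Of 9 adipocyte markers, 3 rose (Adipoq, Pnpla2 and Cebpa), and the 9, led by Pnpla2 and Plin1, summed to between 6638 and 7474 CPM in vehicle and between 8605 and 10118 CPM under cotadutide. Of the 9 brown adipocyte markers 3 rose (Cidea, Cox8b and Cox7a1), with sums of 7415 to 11501 CPM and 11022 to 16050 CPM. The part of adipocyte content in the Fabp4 and Lpl results was not tested.

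Fabp3 encodes the binding protein of heart, muscle and brown fat, and lies on chromosome 4 from 130308595 to 130315463 (mm10, plus strand). It stood at 1408, 1477, 1327 and 1789 CPM in vehicle mice and at 1759.8, 1974, 1542, 1371 and 1479 CPM in cotadutide mice. The groups overlapped, and the log2 difference was 0.12 (SE 0.13, 95% interval −0.16 to 0.40, adjusted p = 0.548 by edgeR). Without vehicle mouse 4 it was 0.21 (adjusted p = 0.222). Fabp3 shares 81 of its 823 exon bases with the antisense gene Zcchc17, and reads there cannot be assigned to a strand from the sources used here.

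Fabp5 encodes the epidermal form, which adipocytes and macrophages also make, and lies on chromosome 3 from 10012548 to 10016607 (mm10, plus strand). Its levels were 104.8, 126.0, 74.6 and 61.8 CPM in vehicle mice and 75.6, 66.5, 62.8, 62.4 and 67.9 CPM in cotadutide mice. Vehicle mice 1 and 2 were high, and vehicle mouse 4 was the lowest of all 9. The vehicle mice had a coefficient of variation of 31.7% and the cotadutide mice one of 7.92%. The log2 difference of Fabp5 was −0.46 (SE 0.18, 95% interval −0.85 to −0.06), with an adjusted p of 0.0949 by edgeR, 0.0709 by DESeq2 and 0.13 by limma-voom. Without vehicle mouse 4 it was −0.60 and passed (adjusted p = 0.0123), the only 1 of the 9 fits with 1 library left out to do so. Without vehicle mouse 1 it was −0.39 (adjusted p = 0.243), and without vehicle mouse 2 it was −0.27 (adjusted p = 0.252). The 12 macrophage markers, led by Lyz2 and C1qa, had sums of 342 to 584 CPM in vehicle and 214 to 450 CPM under cotadutide. By edgeR 6 of the 12 fell and 0 rose. Lower were 9 at an unadjusted p under 0.05, 8 by DESeq2 and 6 by limma-voom, with 0 higher in each. There were 19.9 ± 5.61 Fabp5 counts per 100 macrophage marker counts in vehicle and 23.9 ± 4.87 under cotadutide. The part of macrophage content in the Fabp5 values was not tested.

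Within the summed counts of Fabp3, Fabp4 and Fabp5, Fabp4 made up 86.3 ± 0.967% in vehicle and 88.9 ± 0.933% under cotadutide. The vehicle shares reached 87.51% and the cotadutide shares began at 87.54%, so the groups touched without overlap. Fabp3 made up 12.9 ± 0.995% and 10.7 ± 0.918%, and Fabp5 0.802 ± 0.275% and 0.444 ± 0.0496%. The groups overlapped for both. The lowest vehicle and highest cotadutide shares were 11.82% and 11.95% for Fabp3, and 0.483% and 0.513% for Fabp5. These shares are of counts and were not tested.

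**Figure D3:**
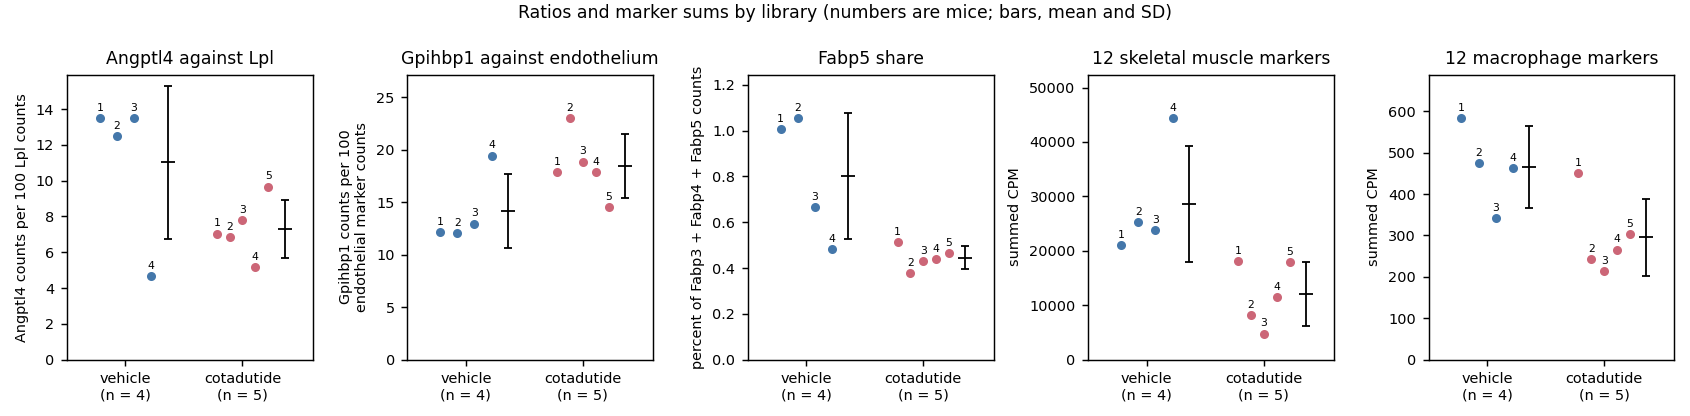
Ratios of counts within each library (Angptl4 per 100 Lpl counts, Gpihbp1 per 100 counts of 12 endothelial markers, and Fabp5 as a percent of Fabp3, Fabp4 and Fabp5 counts) and summed CPM of 12 skeletal muscle and 12 macrophage markers, with 1 point per mouse and the mean and SD of each group. Vehicle mouse 4 has the lowest Angptl4 ratio (4.67) and the highest muscle sum (44398 CPM) of all 9 mice.

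To compare levels between genes, CPM was divided by the length of each gene's principal coding transcript in GENCODE M21. On this scale of CPM per kb, Fabp4 led in vehicle mice at 11168 ± 983, followed by Fabp3 at 1823 ± 245, Lpl at 957 ± 198 and Cd36 at 581 ± 36.2 (SD, n = 4 for each). Gpihbp1 (145 ± 30.2), Angptl4 (124 ± 35.96) and Fabp5 (93.0 ± 29.4) formed a middle tier in which neighbours overlapped. Lmf1 (21.7 ± 3.29), Vldlr (18.3 ± 2.09) and Lrp1 (16.2 ± 2.27) came last, and neighbours overlapped there too. With the length column of the count tables, which can span more than 1 transcript, Cd36 moved above Lpl, Angptl4 above Gpihbp1, and Lmf1 to the last place. For Fabp4 that column gave 4489 bases, the whole span of the gene, against 896 bases for its coding transcript.

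**Figure D4:**
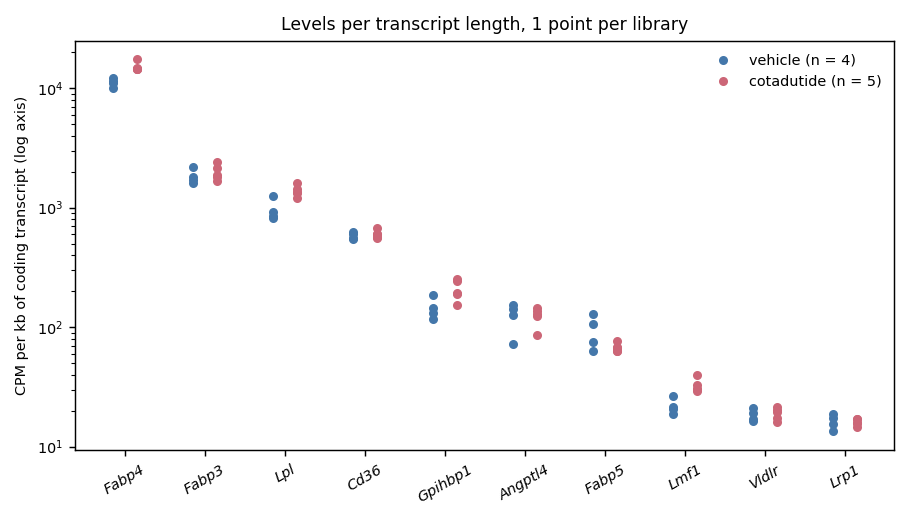
Level of each of the 10 genes as CPM per kb of coding transcript on a log axis, with 1 point per library, vehicle (n = 4) beside cotadutide (n = 5). Fabp4 is highest, at 11168 in the vehicle mean, and Lrp1 lowest, at 16.2.

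Other messages that act on the lipase or on lipoprotein particles were counted from a list of 27 genes, of which 22 were tested. Of these, 4 rose and 2 fell, with a median fold of 1.02. Of all genes tested 9.31% rose and 9.34% fell. Scarb1, the HDL receptor SR-BI, rose 1.35-fold (adjusted p = 0.0163 by edgeR). Pcsk5, a proprotein convertase, rose 1.93-fold from 6.64 ± 1.03 CPM (adjusted p = 0.0163 by edgeR), and Apoc1, an apolipoprotein that slows the lipase, rose 2.02-fold from 159 ± 57.3 CPM (adjusted p = 0.0195 by edgeR). Sel1l, which helps the lipase leave the endoplasmic reticulum, was 1.16 times lower (adjusted p = 0.0495 by edgeR). Apoa5 had no count in any library. Allowing 3 counts over the 9 libraries together as the limit for a count of 0 gives 0.0184 CPM, for counting error only. Apoc2, the cofactor that activates the lipase, was also listed at 0, but 646 of its 813 exon bases are shared with Gm44805, likewise at 0, so no limit is given for it. Without vehicle mouse 1 this list had 0 higher and 0 lower, without vehicle mouse 2 it had 0 and 1, and without vehicle mouse 4 it had 7 and 4. The count of 2 lower also became 1 without vehicle mouse 3 or cotadutide mouse 1, 2 or 3.

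The other 7 fatty acid binding protein genes were too low to test. Fabp12 and Fabp7, the highest of them, had 47 and 27 counts over the 9 libraries, and Fabp1, the liver form, and Fabp6, the intestinal bile acid binder, had 0. The 9 genes of CD36 trafficking and caveolae, the membrane pits in which CD36 sits, had 3 lower and 0 higher (0 also at an unadjusted p under 0.05, by DESeq2 and by limma-voom) and a median that was 1.16 times lower. Of all genes tested 9.34% fell. Lyn and Fyn, kinases that signal with CD36, were 1.32 and 1.48 times lower (adjusted p = 0.0301 and 0.0495 by edgeR), and Cav2, a caveolin, was 1.41 times lower (adjusted p = 0.0385). The count of 3 became 0 without vehicle mouse 1, 2 or 3 or cotadutide mouse 2, became 1 without cotadutide mouse 1 or 3, and became 5 without vehicle mouse 4.

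PPAR and RXR receptors control many of these genes. Of 10 receptor and coactivator genes, all tested, 4 rose and 0 fell (0 also at an unadjusted p under 0.05, by DESeq2 and by limma-voom), with a median fold of 1.27. Of all genes tested 9.31% rose. Rxrb rose 1.42-fold, Nr1h2, which encodes LXR beta, 1.35-fold, and the coactivator Ppargc1b 1.53-fold (adjusted p = 0.0178, 0.0197 and 0.0198 by edgeR). No PPAR was called: Pparg itself had a fold of 1.13, Ppara 1.09 and Ppard 0.915 (adjusted p = 0.165, 0.629 and 0.344 by edgeR). Of 16 PPAR target genes outside the set, all tested, 7 rose and 0 fell (1 lower at an unadjusted p under 0.05, 0 by DESeq2 and by limma-voom), with a median fold of 1.23. Slc27a1, a fatty acid transporter, rose 1.80-fold (adjusted p = 0.0133 by edgeR), and Ehhadh, a peroxisomal oxidation enzyme, rose 2.55-fold from 100.3 ± 39.7 CPM (adjusted p = 0.0148). The receptor count became 0 without vehicle mouse 1, 2 or 3 and 6 without vehicle mouse 4, and the target count became 1 without vehicle mouse 1, 2 without vehicle mouse 2 or 3, and 4 without cotadutide mouse 3. Without vehicle mouse 4, 1 target was lower.

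Muscle RNA moved with the groups beside all these results: 6 of 12 muscle markers fell and 0 rose, and 8 of 12 did not overlap. At an unadjusted p under 0.05 all 12 were lower. DESeq2 called 10 lower and limma-voom 9, with 0 higher by each. With the muscle score of each library (the mean log2 CPM of the 12 markers) as a term in the fit, the log2 difference was 0.63 for Lpl (SE 0.22, adjusted p = 0.308), 0.54 for Lmf1 (adjusted p = 0.308) and 0.44 for Fabp4 (adjusted p = 0.314). For Gpihbp1 it was 0.28 (adjusted p = 0.631), down from 0.51, and for Fabp5 −0.48 (adjusted p = 0.44). For Fabp3, which muscle also makes, it was 0.20 (adjusted p = 0.666), against 0.12 without the score. The part of muscle RNA in the Fabp3 values was not tested. In that fit 0 of 14747 genes were called by edgeR, 2075 had an unadjusted p under 0.05, and 3 of the 10 genes did, all higher. The score did not overlap between the groups. Other cell types were represented by 3 more lists. Of 6 tested white adipocyte markers 3 fell (Npr3, Lep and Mest) and 0 rose. At an unadjusted p under 0.05 there were 3 lower and 1 higher. DESeq2 called 3 lower and limma-voom 2, with 0 higher by either. Retn of that list had a fold of 1.73 (adjusted p = 0.118 by edgeR). The 8 fibroblast markers, led by Col3a1 and Dcn, had 0 calls by edgeR (4 lower at an unadjusted p under 0.05, 2 lower by DESeq2 and 2 by limma-voom). The 6 mural cell markers, led by Rgs5 and Cspg4, had 0 calls (1 higher unadjusted, 0 by DESeq2 and by limma-voom). No marker of any of the tested cell type lists was at 0 counts.

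**Figure D5:**
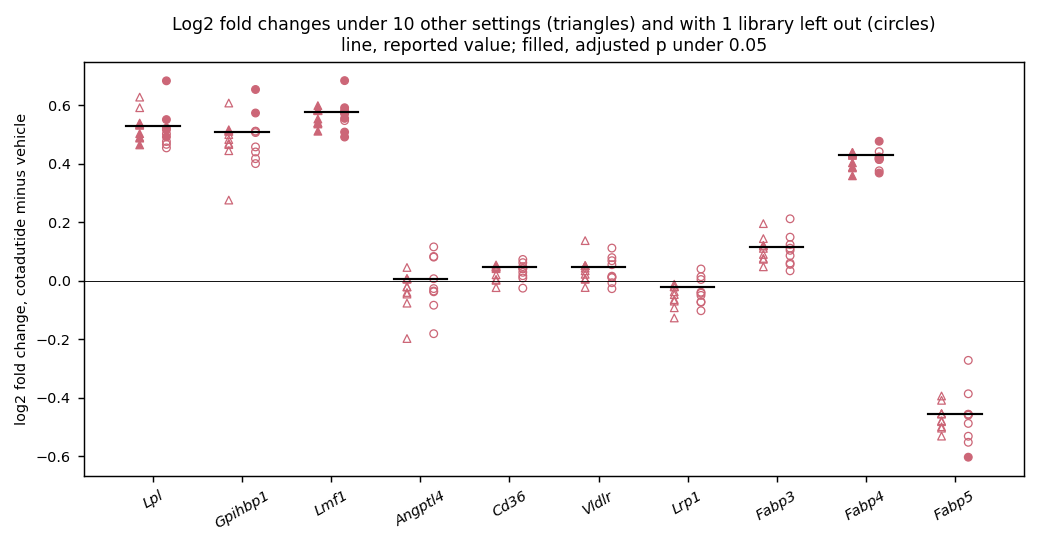
Log2 fold change of each of the 10 genes, cotadutide minus vehicle, under 10 other settings (triangles) and with each library left out in turn (circles); the black line is the reported value and filled symbols have an adjusted p under 0.05. Lpl stays between 0.45 and 0.68, Lmf1 between 0.49 and 0.68 and Fabp4 between 0.36 and 0.48, while Angptl4 lies on both sides of 0.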

How the data were processed

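RNA was measured in brown fat of 9 mice, 1 library each, with groups and mouse numbers from the labels. The authors deposited 1 table per library of raw counts per Ensembl gene, in whole numbers. Per the submitters' processing notes, the build was mm10 and the tools were STAR 2.5.2b, featureCounts (Subread 1.5.2), Trimmomatic 0.36 and bcl2fastq 2.17. Strandedness and annotation version are not stated in the sources used here, so reads of overlapping and antisense genes cannot be separated.

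Identifiers were matched to symbols (48970 of 49315; the other 345 held 0.031% of counts). In R 4.3.3, edgeR 4.0.16 filtered with filterByExpr (99.87% of counts kept), scaled by TMM (factors 0.915 to 1.06) and fitted the robust quasi-likelihood model with group as the only term, with adjustment over all 14747 genes. DESeq2 1.42.0 and limma-voom (limma 3.58.1) were alternatives. The fits were tested on simulated counts. No library was a copy of another (chi-square per degree of freedom of at least 12.7 in every pair).

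The 10 genes, the gene lists and the tests were chosen with earlier results of these data known. All 10 are named. From each related list up to 3 called genes per direction with the smallest adjusted p are named, or the 2 most abundant, and from each cell type list the 2 most abundant and those called. Some list genes that the rule would name are not reported here. Ratios of counts are given with no test.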

Additional observations from a re-analysis of the deposited data

Results flagged for a closer look

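Fabp4 in cotadutide mouse 2 stood at 15587 CPM, while the other cotadutide mice lay between 12836 and 13089.9 CPM. The gap to its nearest neighbour, as a share of the range of the group, exceeded Dixon's limit for 5 samples. It was the only such value among 20 groups of 4 or 5 libraries (10 genes in both treatments), and chance gives about 1 in 20. Without that mouse the log2 difference of Fabp4 was 0.37 (adjusted p = 0.0395 by edgeR) in place of 0.43.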

How the results depend on the processing

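The groups hold 4 and 5 mice, and a count table cannot separate cell number from RNA per cell. Over the 10 genes and 19 alternatives (9 leave out 1 library), 152 values kept their direction and side of the threshold, 15 lost the call, 4 gained it and 19 changed sign. The number of the 10 genes called higher, 3, was 1 with the replicate block and 0 with the muscle score, and 0 to 4 with 1 library left out, and the number called lower was 0 to 1. Over all genes 1373 higher became 900 with no low-count filter, 516 with the replicate block, 0 with the muscle score and 42 to 2116 with 1 library left out. The 1378 lower became 768 with the replicate block, 0 with the muscle score and 92 to 1724 with 1 library left out. The cause was not tested. Of the related lists, the 2 lower lipase partners were 1 with upper-quartile scaling or the replicate block. The 3 lower CD36 and caveolae genes were 0 with the replicate block and 5 without mitochondrially encoded genes or at a mean of at least 5 CPM. The 4 higher receptor and coactivator genes, none of them a PPAR, were 1 with the replicate block. The 7 higher PPAR targets were 4 with that block or with no low-count filter. With the muscle score these lists had 0 calls. Sign changes were limited to Angptl4, Cd36, Vldlr and Lrp1, none called in any of these fits. With library totals alone Angptl4 was −0.0761, Cd36 −0.0231 and Vldlr −0.0228, where the median of all genes moved to −0.07. Angptl4 was −0.0208 without mitochondrially encoded genes, −0.0451 with no filter, −0.0396 at a mean of at least 5 CPM, −0.0200 with the replicate block and −0.20 with the muscle score. With 1 library left out Angptl4 ranged from −0.18 to 0.12, Cd36 from −0.0248 to 0.0733, Vldlr from −0.0266 to 0.11 and Lrp1 from −0.10 to 0.0407. Mice of the 2 groups with the same number are separate animals, and their deviations correlated at 0.135, −0.04, 0.0229 and −0.0107. The highest values of the same vehicle mice with cotadutide mice of another number were 0.0817, 0.172, 0.121 and 0.203. Such correlations show no pairing by number in mice 2 to 4, but they cannot exclude a shared day or batch. With the replicate block the log2 difference was 0.59 for Lpl (adjusted p = 0.0619), 0.60 for Lmf1 (0.0413) and 0.44 for Fabp4 (0.0741).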

Other observations

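The 5 genes whose log2 CPM over the 9 libraries, each centred on its own mean, lay nearest to that of Lpl were Coq3, Acy3, Dolk, Ptdss2 and Aldh9a1. Their root mean square differences from Lpl were 0.0658, 0.0749, 0.0771, 0.0834 and 0.0837, against a median of 0.363 over 9747 genes of at least 5 CPM. Coq3 makes coenzyme Q and Ptdss2 makes phosphatidylserine. Lmf1 was in place 148 of that order, Fabp4 in place 354 and Gpihbp1 in place 773. The 5 nearest to Fabp4 were Mrps36, Fdx1, Mrps17, Trabd and Cyhr1, with differences of 0.0457, 0.0475, 0.0514, 0.0536 and 0.0586 and a median of 0.283. Mrps17 is a protein of the mitochondrial ribosome and Fdx1 a mitochondrial ferredoxin. These are descriptions over 9 libraries that share the treatment split.

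The processed pseudogene Fabp3-ps1 held between 0.72 and 1.06 counts per 100 Fabp3 counts.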
